A study of Mus musculus with 32 samples.

Results

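The 5 glutathione peroxidase genes Gpx1, Gpx3, Gpx4, Gpx7 and Gpx8 were taken by symbol from a table of 54532 mouse genes, and each symbol stood on 1 row. The other 3 genes of the family in the table, Gpx2, Gpx5 and Gpx6, had almost no reads in fat and were kept apart. RNA was measured in inguinal white fat (iWAT, under the skin), epididymal white fat (eWAT, in the abdomen), brown fat (BAT, which burns fuel for heat) and liver, with 4 vehicle and 4 auranofin libraries of each tissue, 32 in all. Every group came from wild-type C57/Bl6j mice made obese on a 60% fat diet for 12 weeks. The mice were then given vehicle, or auranofin at 1 mg/kg on 3 days a week, for 4 weeks, so no group shows lean mice. Auranofin is a gold compound used against rheumatoid arthritis and known for inhibiting thioredoxin reductases. Mouse age is not given in the sources used here. Whether the 4 libraries of a group were 4 mice is not stated, so the p-values below measure the spread between these libraries, which may be technical in part.

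Glutathione peroxidases reduce hydrogen peroxide and organic peroxides, mostly with glutathione as the electron donor. Gpx1 works in the cytosol and mitochondria, Gpx3 is secreted into plasma, and Gpx4 reduces peroxidised phospholipids within membranes and is the best-known brake on ferroptosis, a form of cell death driven by lipid peroxidation. These enzymes carry selenocysteine at the catalytic position, which is read from an in-frame UGA codon by a dedicated insertion machinery. Gpx7 and Gpx8 are enzymes of the endoplasmic reticulum with cysteine at that position, and they take part in oxidative protein folding.

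The catalytic codon and the coding bases on each side of it show this division of the family. Each window below was read from GENCODE M21 transcripts on GRCm38, 5′ to 3′ on the coding strand, with 45 bases on each side, and the capitals mark the catalytic codon.
Gpx1: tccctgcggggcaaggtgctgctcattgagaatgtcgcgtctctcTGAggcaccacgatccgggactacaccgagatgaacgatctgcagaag
Gpx3: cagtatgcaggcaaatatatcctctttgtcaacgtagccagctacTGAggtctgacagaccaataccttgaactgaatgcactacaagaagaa
Gpx4: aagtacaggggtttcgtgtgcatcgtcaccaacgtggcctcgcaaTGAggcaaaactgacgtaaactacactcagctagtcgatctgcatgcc
Gpx7: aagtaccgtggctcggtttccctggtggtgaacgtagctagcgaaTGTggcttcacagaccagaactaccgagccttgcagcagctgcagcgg
Gpx8: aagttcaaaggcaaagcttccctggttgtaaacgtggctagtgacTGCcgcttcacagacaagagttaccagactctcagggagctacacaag
The TGA of Gpx1, Gpx3 and Gpx4 is annotated as selenocysteine, and each of these reading frames held 1 TGA before its final stop codon. The TGT of Gpx7 and the TGC of Gpx8 are cysteine codons, and their frames held 0 such TGA. Bases were compared position by position, without gaps. Gpx7 and Gpx8 had the most matches, with 62 of 93 bases identical (66.67%). Gpx1 and Gpx3 had the fewest in this count, with 35 of 93 (37.63%). A codon missing from a window puts the later bases out of step and lowers the count. No alignment with gaps was made, so the count does not rank the pairs by distance.

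On mm10, Gpx1 (ENSMUSG00000063856) spans chr9:108338903-108340343 on the plus strand, with its catalytic codon at chr9:108339451-108339453 in exon 1 of 2. Gpx3 (ENSMUSG00000018339) spans chr11:54902453-54910377 on the plus strand, with the codon at chr11:54907256-54907258 in exon 2 of 5. Gpx4 (ENSMUSG00000075706) spans chr10:80047166-80056439 on the plus strand, with the codon at chr10:80054737-80054739 in exon 3 of 7. Gpx7 (ENSMUSG00000028597) spans chr4:108400390-108406961 on the minus strand, with the codon at chr4:108403430-108403432 in exon 2 of 3. Gpx8 (ENSMUSG00000021760) spans chr13:113042753-113046410 on the minus strand, with the codon at chr13:113045661-113045663 in exon 2 of 3. All 5 are short genes, of 1048 to 1813 bases as used in the deposited table. The library kit kept no strand, and Gpx8 overlaps Cdc20b on the opposite strand, but Cdc20b reached a mean of only 0.00223 FPKM. Gpx4 has a near-identical transcribed processed pseudogene, Gpx4-ps2, at chr10:45875291-45876086, in which 553 of 555 aligned bases match (99.64%). Its reads made up 4.83% to 8.73% of the reads of both together, and adding them to Gpx4 changed no call.

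FPKM, the unit used throughout, is the reads of a gene scaled by its length and by a library size set by the authors, so levels can be set side by side between genes. The libraries held 13606756 to 19205640 reads in genes, on 18970 to 22594 genes. Adipoq, the adipocyte hormone adiponectin, was at 496 to 3251 FPKM in the fat libraries and at most 0.132 in liver. Alb, hepatocyte albumin, was at 39644 to 57473 FPKM in liver, and Ucp1, the uncoupling protein of brown fat, was at 1697 to 4145 in BAT and at most 0.441 elsewhere. Some libraries carried markers of other tissues. The mean log2(FPKM + 1) of 10 skeletal muscle genes reached 6.52 and 5.97 in vehicle and auranofin library 4 of iWAT, against at most 1.35 in the other iWAT libraries. In BAT it was 2.50, 0.279, 4.32 and 5.85 in vehicle libraries 1 to 4 and 0.257, 7.79, 0.319 and 6.37 with auranofin, so both groups held libraries with muscle transcripts. That of 12 hepatocyte genes reached 4.95 in auranofin library 2 of eWAT and 4.11 in vehicle library 1 of iWAT, with Alb at up to 286 FPKM in eWAT and 217 in iWAT.

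In vehicle mice, the make-up of the family differed between tissues, with Gpx1 leading in liver and eWAT and Gpx4 in iWAT and BAT. Their summed level was 2410 ± 140 FPKM in liver, 2011 ± 165 in BAT, 1454 ± 262 in iWAT and 866 ± 181 in eWAT (mean ± SD, n = 4). This order depended on the scale: with each library rescaled to the same total (TPM), the sums were 4032 ± 226 in liver, 4411 ± 404 in BAT, 4125 ± 587 in iWAT and 3380 ± 882 in eWAT. Gpx1 made up 88.5% of that sum in liver and 51.2% in eWAT. The leading share of Gpx4 was 50.9% in iWAT and 46.6% in BAT. Gpx3 made up 30.0% in BAT, 18.9% in eWAT, 9.24% in iWAT and 0.209% in liver. Gpx7 and Gpx8 together stayed a small part everywhere, with at most 1.91% for Gpx7 (iWAT) and 2.58% for Gpx8 (eWAT). Ranked by mean FPKM among protein-coding genes with reads, Gpx1 stood at place 31 of 15822 in liver and Gpx4 at place 33 of 16252 in BAT, while Gpx7 stood at 9695 in liver.

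**Figure D1:**
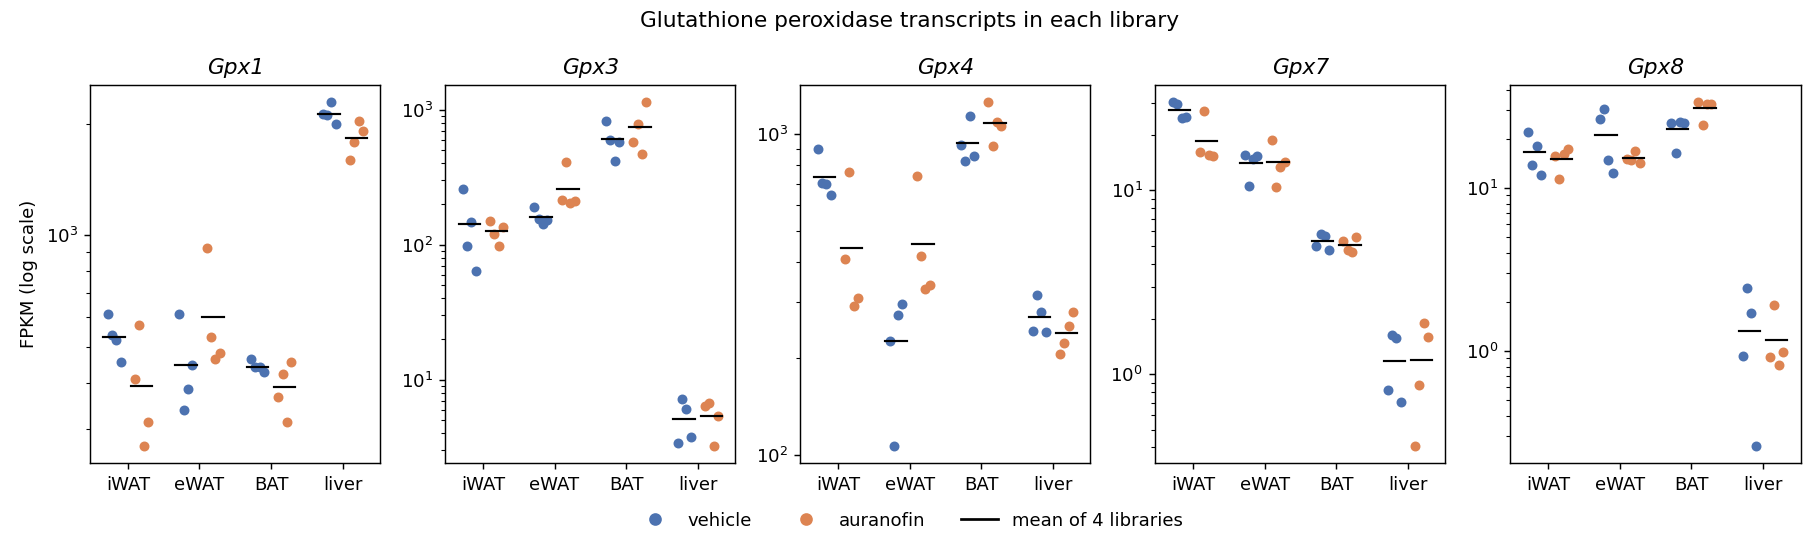
FPKM (log scale, a scale of its own for each gene) of the 5 glutathione peroxidases in 32 libraries, with vehicle in blue, auranofin in orange and a bar at the mean of the 4 libraries of each group. Gpx1 is highest in liver, Gpx3 highest in BAT and at 3.24 to 7.19 FPKM in liver, and Gpx7 lies above 10 FPKM in every white fat library and below 2 in every liver library.

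**Figure D2:**
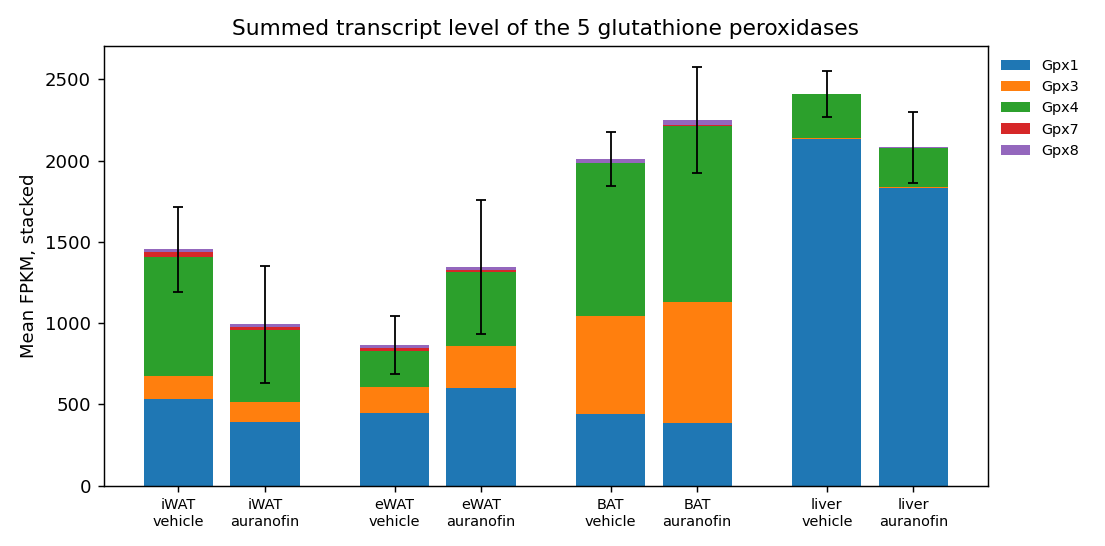
Mean FPKM of the 5 genes stacked for each tissue and treatment (4 libraries a group), with the SD of the sum as the error bar. The vehicle sums are 866 FPKM in eWAT, 1454 in iWAT, 2011 in BAT and 2410 in liver, where Gpx1 fills most of the bar.

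The tissues were compared in the 16 vehicle libraries, in 1 limma fit on log2(FPKM + 1) with p-values adjusted by the Benjamini-Hochberg method over all 14339 genes tested and a threshold of 0.05. All changes below are log2 differences on that scale, which understates differences of genes with low levels. All 5 members passed between liver and iWAT, where 69.5% of genes tested did, and between liver and BAT, where 63.1% did. Between liver and eWAT 4 members passed (71.9% of all genes), and between BAT and eWAT 3 did (53%). Between eWAT and iWAT 2 members passed (46.2%), and likewise 2 between BAT and iWAT (50.1%). The members' counts are therefore read against 46.2% to 71.9% of all genes tested. Every member's difference that passed kept its sign under the other scalings run, and differences between vehicle tissues that turned are named with the gene. In bulk tissue, fewer cells of a type and less RNA in each cell cannot be told apart.

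Gpx1, the general enzyme of the cytosol and mitochondria, was highest in liver. Its vehicle libraries 1 to 4 measured 2125, 2115, 2292 and 1999 FPKM in liver. They measured 611, 539, 522 and 456 in iWAT, 615, 337, 385 and 446 in eWAT, and 462, 439, 439.7 and 427 in BAT. No liver library overlapped a fat library, and the liver mean was 4.01 times that of iWAT, 4.79 times that of eWAT and 4.83 times that of BAT. The liver differences were 2.01, 2.29 and 2.27 (SE 0.16 each), with adjusted p of 1.22e-08, 2.34e-09 and 2.98e-09. The 3 fat depots overlapped, and no pair of them passed the test (adjusted p 0.157 to 0.922), with eWAT minus iWAT at -0.28 and, on the TPM scale, at 0.15. On the TPM scale, Gpx1 was instead lower in BAT than in iWAT (-0.64, adjusted p 0.00634, with 55.4% of genes past the threshold) and than in eWAT (-0.79, adjusted p 0.000845, with 71.5%). Quantile normalisation gave the same calls (-0.46, adjusted p 0.0277, with 48.7%, and -0.75, adjusted p 0.000983, with 54.2%). Without eWAT vehicle library 1, the highest at 615 FPKM, Gpx1 was also called lower in eWAT than in iWAT (-0.45, adjusted p 0.0104, with 39.4%), and without libraries 1 and 2 likewise (-0.35, adjusted p 0.0289, with 42.3%).

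Gpx3, the secreted enzyme, had the widest range of the family. BAT vehicle libraries measured 821, 599, 419 and 580.4 FPKM, against 257, 97.9, 147 and 63.6 in iWAT and 189, 155, 143 and 152 in eWAT. Liver measured 3.41, 7.19, 6.01 and 3.73 FPKM, from 74 to 149 reads a library. BAT lay above every other tissue without overlap, at 3.79 times the eWAT mean, 4.27 times the iWAT mean and 119 times the liver mean. BAT exceeded iWAT by 2.24 (SE 0.34, adjusted p 5.57e-05) and eWAT by 1.88 (SE 0.34, adjusted p 0.000218), and liver was lower than BAT by -6.65 (SE 0.34, adjusted p 4.96e-11). Both white depots overlapped and did not differ past the threshold (0.35, SE 0.34, adjusted p 0.421). With quantile normalisation, eWAT exceeded iWAT by 0.90 and passed (adjusted p 0.0432, with 41.7% of genes). Gpx3 also varied most within a group among the abundant members, with a coefficient of variation of 59.7% in iWAT vehicle libraries.

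Gpx4, the phospholipid hydroperoxidase, divided the white depots. Vehicle libraries measured 899.7, 704, 699 and 644 FPKM in iWAT and 226, 107, 273 and 296 in eWAT, with no overlap and a ratio of means of 3.27. BAT measured 925, 823, 1138 and 856 FPKM, and liver 243, 315, 278 and 241. The order of the means was BAT, iWAT, liver, eWAT, and its neighbours BAT and iWAT (0.34, SE 0.25, adjusted p 0.273) and liver and eWAT (0.35, SE 0.25, adjusted p 0.228) did not differ past the threshold. Gpx4 was lower in eWAT than in iWAT by -1.79 (SE 0.25, adjusted p 5.23e-05) and higher in BAT than in eWAT by 2.14 (SE 0.25, adjusted p 3.27e-06). Liver was lower than iWAT by -1.44 (adjusted p 9.42e-05) and lower than BAT by -1.79 (adjusted p 1.17e-05). The liver and eWAT difference turned its sign with the scaling, to -0.86 on the TPM scale (adjusted p 0.00741, with 82.8% of genes past the threshold) and -0.83 with quantile normalisation (adjusted p 0.0115, with 70%), and the BAT and iWAT difference was -0.032 on the TPM scale.

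Gpx7, a peroxidase of the endoplasmic reticulum, followed the order iWAT, eWAT, BAT and liver. Vehicle libraries measured 30.2, 29.4, 24.8 and 25.1 FPKM in iWAT, and 15.5, 10.6, 14.8 and 15.4 in eWAT. They measured 5.0, 5.78, 5.62 and 4.74 FPKM in BAT, and 0.819, 1.63, 1.58 and 0.709 in liver, the last from 10 to 25 reads a library. No 2 tissues overlapped, and each step passed the test. The steps were -0.92 from iWAT to eWAT (SE 0.15, adjusted p 0.000208), -1.25 from eWAT to BAT (SE 0.15, adjusted p 4.73e-06) and -1.55 from BAT to liver (SE 0.15, adjusted p 2.00e-07). The iWAT mean was 1.94 times that of eWAT, 5.18 times that of BAT and 23.1 times that of liver.

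Gpx8, the membrane-bound relative of Gpx7 in the endoplasmic reticulum, was higher in each fat depot than in liver, the only other tissue measured. No order among the depots passed in the vehicle libraries. Vehicle libraries measured 25.03, 16.3, 25.3 and 25.1 FPKM in BAT, 26.6, 30.3, 14.8 and 12.3 in eWAT, and 22.1, 13.7, 18.1 and 12.0 in iWAT. The 3 depots overlapped and no pair passed (adjusted p 0.243 to 0.648). BAT exceeded eWAT by 0.19 (SE 0.32), which turned to -0.60 on the TPM scale. Liver measured 0.935, 2.42, 1.71 and 0.262 FPKM, from 3 to 29 reads a library, below every fat library. Liver was lower than BAT by -3.43, than eWAT by -3.24 and than iWAT by -2.97 (SE 0.32 each, adjusted p 9.69e-08 to 4.97e-07). In eWAT, the high libraries 1 and 2 of Gpx8 were also those with the highest fibroblast marker level (5.71 and 5.58 against 5.18 and 5.18, mean log2(FPKM + 1) of 15 genes), and the part of this in the level was not tested.

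The remaining family members did little in these tissues. Gpx2, the gastrointestinal enzyme, had 0 reads in every fat library and at most 0.109 FPKM in liver. Gpx5, an epididymal enzyme, had 1 read in 1 of 8 eWAT libraries and at most 0.283 FPKM in liver. The other markers of epididymis and testis were also near 0 in eWAT, with a summed level of at most 1.12 FPKM for the 10 genes of the list. Gpx6 was read in all 8 liver libraries, at 0.385 to 1.73 FPKM (6 to 25 reads).

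Auranofin was compared with vehicle in each tissue alone, to ask whether the drug altered these transcripts. No member passed the threshold in any tissue. The count was 0 of 5 in iWAT, where 0% of 13164 genes tested passed, in eWAT (0% of 13847) and in liver (0% of 13122), and 0 of 5 in BAT, where 0.023% of 13067 genes passed (3 genes, all lower). Genes with an unadjusted p under 0.05 numbered 2895 in iWAT, 1585 in eWAT, 1459 in BAT and 793 in liver. The limma-voom test on reads rebuilt from the FPKM values called 0 members in each tissue as well. A member's groups of 4 stood apart without overlap in eWAT alone, for Gpx3 and Gpx4, both higher with auranofin, where 3% of all genes tested stood apart as higher and 3.95% as lower. In iWAT 2.77% of genes stood apart as higher and 2.41% as lower, in liver 1.52% and 2.2%, and in BAT 2.28% and 3.05%.

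**Figure D3:**
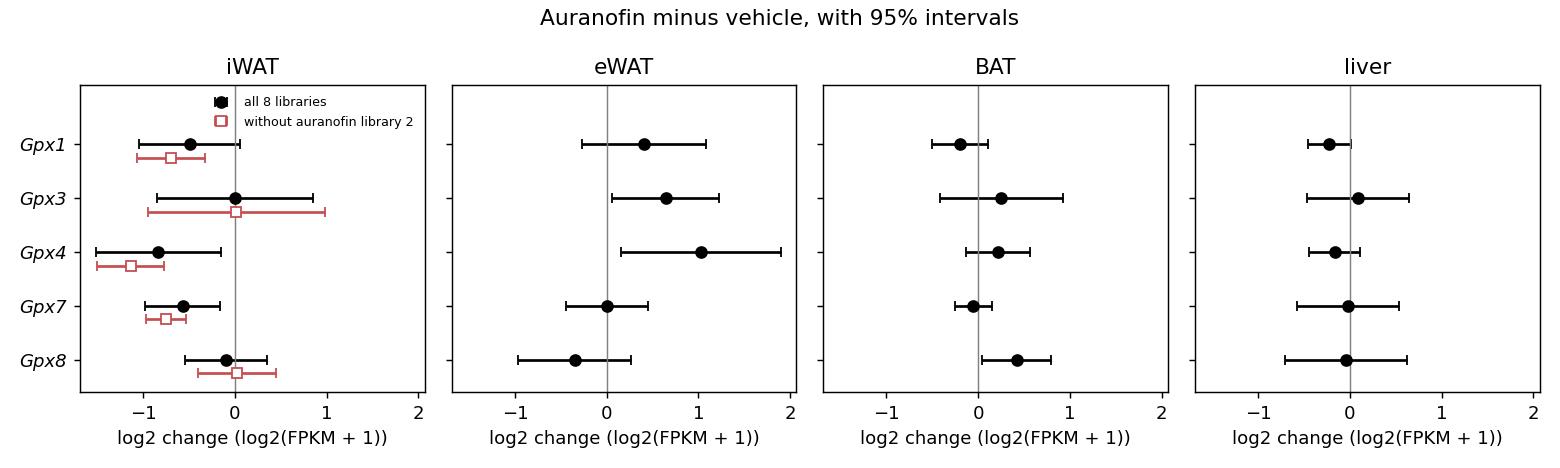
log2 change, auranofin minus vehicle, of the 5 genes in each tissue on the log2(FPKM + 1) scale, with 95% intervals from limma (black, 8 libraries) and, for iWAT, without auranofin library 2 (red). In eWAT the Gpx4 point is at 1.03 and in iWAT at -0.84, and leaving out the library moves iWAT Gpx4 to -1.14 with a narrower interval.

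In iWAT, Gpx1, Gpx4 and Gpx7 shared a pattern in which 3 of 4 auranofin libraries lay below all vehicle libraries and library 2 did not. Gpx4 measured 408, 763, 290.0 and 308 FPKM in auranofin libraries 1 to 4, against 644 to 899.7 with vehicle. Gpx7 measured 16.3, 27.0, 15.6 and 15.4, against 24.8 to 30.2. Gpx1 measured 409.7, 574, 270.0 and 312, against 456 to 611. With all 8 libraries the changes were -0.84 for Gpx4 (SE 0.30, adjusted p 0.204), -0.57 for Gpx7 (SE 0.18, adjusted p 0.204) and -0.49 for Gpx1 (SE 0.24, adjusted p 0.249). Gpx3 measured 149, 119.7, 97.8 and 136 FPKM and Gpx8 15.7, 11.4, 16.2 and 17.2, all within the vehicle range apart from Gpx8 in library 2, with changes of -0.00055 and -0.098.

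Library 2 decided whether these members passed. Without it, Gpx4 fell by 1.14 (SE 0.16, adjusted p 0.00214), Gpx7 by 0.76 (SE 0.095, adjusted p 0.00151) and Gpx1 by 0.70 (SE 0.16, adjusted p 0.0120). However, 36.4% of 13248 genes tested then passed, 21.3% as lower, so the 3 of 5 members were called beside a large share of all genes. Weighting libraries by their fit, with none left out, gave the same 3 calls and 46.3% of genes. The 3 auranofin libraries other than library 2 also differed from the rest in general measures. They had 21667 to 21924 genes with reads, against 19839 to 21368 with vehicle and 19949 in library 2. Ribosomal RNA genes took 0.229% to 0.247% of their reads, against 0.0684% to 0.121% with vehicle and 0.0847% in library 2. The white adipocyte list stood at 8.66 to 8.94 in them (mean log2(FPKM + 1) of 15 genes), 9.03 to 9.29 with vehicle and 9.34 in library 2, and the endothelial list at 4.19 to 4.55, 3.57 to 3.85 and 3.47.

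All 5 members are short, and short genes had a lower median in iWAT with auranofin than long ones. The median change was -0.30 over 1397 protein-coding genes above 1000 and up to 2000 bases long, the class of the members, and 0.086 over 3497 genes above 6000 bases. After the trend with gene length was removed from each library, the changes of all 8 libraries were -0.61 for Gpx4, -0.28 for Gpx7 and -0.23 for Gpx1, and none passed. With the trend removed and library 2 left out, Gpx4 (-0.83, SE 0.13, adjusted p 0.00354) and Gpx7 (-0.37, SE 0.080, adjusted p 0.0112) passed and Gpx1 (-0.34, SE 0.13, adjusted p 0.0800) did not, where 32.4% of genes passed. Gpx4 and Gpx7 stayed below 0 in each of the 20 settings run, between -1.20 and -0.42 and between -0.77 and -0.28. Gpx1 ran from -0.82 to -0.039, the latter with quantile normalisation (adjusted p 0.853).

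In eWAT, Gpx4 and Gpx3 were higher in each auranofin library than in any vehicle library, but neither passed. Gpx4 measured 741, 416, 328 and 337 FPKM with auranofin, against 226, 107, 273 and 296 with vehicle, a change of 1.03 (SE 0.39, 95% interval 0.16 to 1.90, adjusted p 0.429). Auranofin library 1 and vehicle library 2 lay farthest apart, and without both the change was 0.44 (adjusted p 0.628). Gpx3 measured 215, 412, 203 and 211 FPKM, against 189, 155, 143 and 152, a change of 0.64 (SE 0.26, 95% interval 0.056 to 1.23, adjusted p 0.429). Its highest library, auranofin library 2, was also the one with hepatocyte transcripts. Gpx3 was at most 7.19 FPKM in the liver libraries, and the part of hepatocyte transcripts in the Gpx3 change was not tested. Gpx1 measured 926, 530.2, 463 and 480.3 FPKM, against 615, 337, 385 and 446, with a change of 0.40 (SE 0.30, adjusted p 0.512) that ran from 0.17 (without auranofin library 1) to 0.57 with each library left out. Without auranofin library 1 and vehicle library 2 the Gpx1 change was 0.052, the lowest of 20 settings. Gpx7 (10.4 to 18.8 FPKM against 10.6 to 15.5) was at 0.0020 (adjusted p 0.996), and Gpx8 (14.3 to 16.7 against 12.3 to 30.3) at -0.35 (adjusted p 0.526).

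Markers of adipocytes, macrophages and fibroblasts also differed among the same eWAT libraries. The white adipocyte list was at 6.96, 7.26, 8.26 and 8.45 in vehicle libraries 1 to 4 and at 9.07, 8.98, 8.40 and 8.43 with auranofin. The macrophage list of 12 genes ran the other way, at 7.20, 7.06, 5.86 and 6.05 with vehicle and 5.72, 4.37, 5.82 and 6.06 with auranofin. Vehicle libraries 1 and 2, the lowest for Gpx4 at 226 and 107 FPKM, were thus lowest in adipocyte and highest in macrophage genes. The fibroblast and progenitor list, already set beside the Gpx8 levels, was at 5.71, 5.58, 5.18 and 5.18 with vehicle and 4.82, 4.43, 4.90 and 5.0 with auranofin, without overlap, and 15 of its 15 genes lay below 0 (median -0.63, 0 passed). The part of these cells in the Gpx values was not tested. Short genes had the higher median here, 0.18 over 1437 protein-coding genes above 1000 and up to 2000 bases long against -0.087 over 3617 above 6000 bases. With that length trend removed, Gpx4 was at 0.89 (adjusted p 0.451), Gpx3 at 0.51 (adjusted p 0.456) and Gpx1 at 0.24 (adjusted p 0.652). Ribosomal RNA genes took 0.306% to 0.643% of the reads in auranofin libraries 2 to 4 and 0.0796% in auranofin library 1, against 0.0134% to 0.214% with vehicle, and the part of this was not tested. Without vehicle libraries 1 and 2 the Gpx4 change was 0.59 (adjusted p 1.00) and the Gpx3 change stayed within its range of 0.40 to 0.75 over all 20 settings. The Gpx4 change ran from 0.37 to 1.19 over the 20 settings. In 1 fit of all 32 libraries, which shares the spread among tissues, Gpx4 passed in eWAT at the main change of 1.03 (adjusted p 0.0305), as did 6.99% of genes tested.

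**Figure D4:**
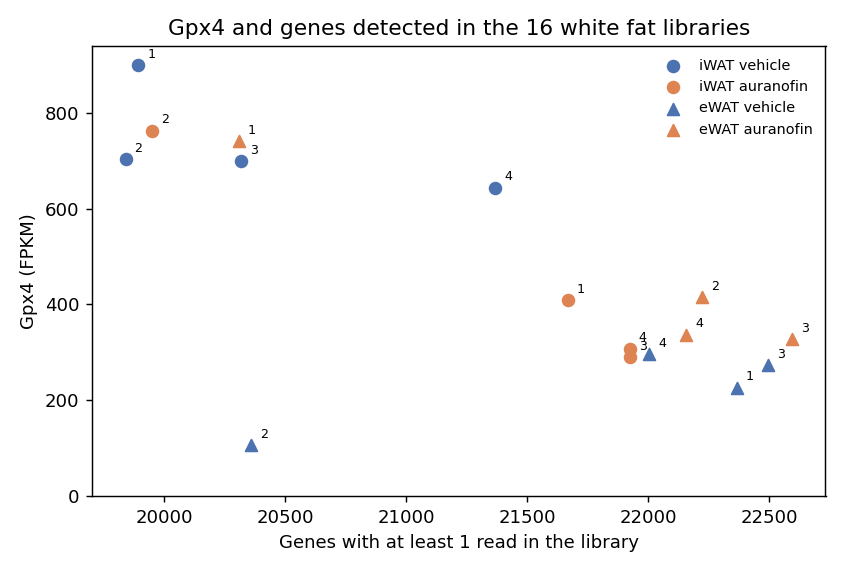
Gpx4 FPKM against the number of genes with at least 1 read in the 16 white fat libraries (circles iWAT, triangles eWAT, blue vehicle, orange auranofin, each labelled with its library number). The 3 iWAT auranofin libraries at 290.0 to 408 FPKM have 21667 to 21924 genes with reads, iWAT auranofin library 2 lies among the vehicle libraries at 763 FPKM, and eWAT vehicle library 2 is lowest at 107 FPKM.

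Across the 16 white fat libraries, Gpx4 was high where few genes were detected. The 5 iWAT libraries at 644 FPKM or more and eWAT auranofin library 1 (741 FPKM) had 19839 to 21368 genes with reads. The others, at 107 to 416 FPKM, had 21667 to 22594, apart from eWAT vehicle library 2 with 20356. These points share libraries and depth with the comparisons above, and the part of gene detection in the Gpx4 values was not tested.

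In BAT, Gpx8 had the smallest p of the members. It measured 33.5, 24.1, 32.8 and 32.7 FPKM with auranofin, against 25.03, 16.3, 25.3 and 25.1 with vehicle, a change of 0.42 (SE 0.17, 95% interval 0.044 to 0.80, adjusted p 0.404). Library 2 was the low one in both groups, and 3 of 4 auranofin libraries lay above the highest vehicle library. Gpx1 measured 365, 422, 313 and 455 FPKM against 427 to 462 (-0.20, SE 0.13, adjusted p 0.601), with 3 of 4 libraries below the lowest vehicle library. Gpx4 measured 1258, 919.9, 1093 and 1063 FPKM against 823 to 1138 (0.21, SE 0.15, adjusted p 0.625). Gpx3 measured 575, 783, 473 and 1139 FPKM against 419 to 821 (0.25, SE 0.30, adjusted p 0.770). That change ran from 0.021 to 0.44 with each library left out, the lowest without auranofin library 4, and libraries 2 and 4, the 2 highest with auranofin, were those with muscle transcripts, whose part was not tested. Gpx7 measured 4.61 to 5.55 FPKM against 4.74 to 5.78 (-0.053, SE 0.089, adjusted p 0.842). Macrophage genes stood at 1.78 to 2.44 with auranofin and 2.44 to 3.26 with vehicle in BAT, and fibroblast genes at 2.70 to 3.40 and 3.45 to 3.75, and the part of these cells in the Gpx values was not tested.

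In liver, Gpx1 was the member with the smallest p. It measured 1594, 1783, 2043 and 1913 FPKM with auranofin, against 2125, 2115, 2292 and 1999 with vehicle, and 3 of 4 auranofin libraries lay below the lowest vehicle library. The change was -0.22 (SE 0.10, 95% interval -0.46 to 0.011, adjusted p 0.790). Gpx4 measured 207, 224, 252 and 279 FPKM against 241 to 315 (-0.16, SE 0.12, adjusted p 0.844). Gpx3 (3.24 to 6.76 FPKM against 3.41 to 7.19), Gpx7 (0.408 to 1.91 against 0.709 to 1.63) and Gpx8 (0.813 to 1.91 against 0.262 to 2.42) overlapped widely, with changes of 0.088, -0.020 and -0.042. These low members rested on 3 to 153 reads a library, so differences of small size were not detectable at this depth.

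The question whether the drug acted on a member differently between tissues was tested on the difference of the changes itself. The count of members that passed was 0 of 5 for eWAT against iWAT (0% of 13670 genes), for eWAT against BAT (0% of 13842), for iWAT against BAT (0.0224% of 13372) and for liver against the average of the 3 depots (0% of 14413). The difference with the smallest p was that of Gpx4 between eWAT and iWAT, at 1.86 (SE 0.51, adjusted p 0.177). Gpx4 in iWAT against BAT differed by -1.05 (SE 0.35, adjusted p 0.128) and Gpx7 by -0.52 (SE 0.21, adjusted p 0.166). Without iWAT auranofin library 2, Gpx4 and Gpx7 passed between eWAT and iWAT (2.16 with adjusted p 0.0202, and 0.76 with adjusted p 0.0437, where 14.8% of genes passed). They also passed between iWAT and BAT without it (-1.35 with adjusted p 0.00139, and -0.70 with adjusted p 0.00209, where 27.4% passed).

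The depot contrast of Gpx4 was not seen among the auranofin libraries. The eWAT libraries at 328 to 741 FPKM overlapped the iWAT libraries at 290.0 to 763, with a difference of 0.073 (adjusted p 0.929), whereas among vehicle libraries it was -1.79. For Gpx7 the difference was -0.35 with auranofin, where the groups overlapped and it did not pass (adjusted p 0.395), and -0.92 with vehicle. Gpx3 in turn exceeded iWAT in eWAT with auranofin by 0.99 (adjusted p 0.0382), the 1 member called there, where 10.6% of genes passed. Gpx8 was higher in BAT than in iWAT (0.98, adjusted p 0.000102, with 47.5% of genes) and than in eWAT (0.96, adjusted p 0.000104, with 52.5%) with auranofin, and it passed in neither with vehicle. Gpx4 was higher in BAT than in iWAT (1.40, adjusted p 0.00121) and lower in liver than in eWAT (-0.84, adjusted p 0.0200, with 68.6%) with auranofin. The tests of the difference between treatments are those given above.

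The pathway genes around these enzymes gave no calls either. Of 23 genes of glutathione synthesis and reduction, 19 were tested in iWAT and 0 passed, with 3 above and 16 below 0 and a median of -0.25. In eWAT 13 of 20 lay above 0 (median 0.13), in liver 4 of 19 (median -0.084) and in BAT 14 of 19 (median 0.074). The median over all genes tested in iWAT was -0.017. Counts of signs, here and for the lists below, were not set against those of all genes. The median of all genes also moved with the scale, as given at the end. Chac2, which degrades glutathione, had the smallest p of the list in iWAT (-0.54, SE 0.11, adjusted p 0.204), and Glrx5, a mitochondrial glutaredoxin, had it in eWAT (0.82, SE 0.34, adjusted p 0.429).

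Genes that handle selenium or make and insert selenocysteine, and the other selenoproteins, bear on Gpx1, Gpx3 and Gpx4, whose UGA codons are shown above. Of 16 selenium-handling genes 14 were tested in each tissue and 0 passed, with 4 above 0 in iWAT, 7 in eWAT, 11 in BAT and 6 in liver. Sephs2, which makes the selenium donor, had the smallest p in iWAT (-0.76, SE 0.18, adjusted p 0.204). Of 20 other selenoproteins, 16 were tested in iWAT with 12 below 0 (median -0.29), 16 in eWAT with 10 above 0 (median 0.13), 17 in liver with 14 below 0 (median -0.074) and 17 in BAT with 10 above 0 (median 0.023), and 0 passed. Selenow, a small selenoprotein, was at 0.81 in eWAT (SE 0.31, adjusted p 0.429). Txnrd1, the cytosolic thioredoxin reductase, was at 0.052 in iWAT, -0.25 in eWAT, -0.13 in BAT and -0.14 in liver (adjusted p 0.447 to 0.850). In liver, Selenom, a selenoprotein of the endoplasmic reticulum, had the smallest p of the other selenoproteins, at 0.46 (adjusted p 0.711), ahead of Dio1, the thyroid hormone deiodinase, at -0.54 (adjusted p 0.789). Selenop, the plasma selenium carrier, was at -0.26 (adjusted p 0.790). Sephs2 and Selenop are in both lists, so the counts of the lists are not separate.

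Beside Gpx4, 20 genes of lipid peroxidation and ferroptosis were followed. Of these 0 passed, and 11 of 16 tested lay below 0 in iWAT, 11 of 17 in eWAT, 7 of 15 in BAT and 10 of 15 in liver. Hmox1, heme oxygenase, had the smallest p of the list in BAT, at -1.46 (SE 0.33, adjusted p 0.220), and was at -0.84 in eWAT (SE 0.35, adjusted p 0.429). In both tissues 12 of 12 macrophage genes lay below 0, with medians of -0.82 in BAT and -0.94 in eWAT, and 0 passed. Fibroblast and progenitor genes were also mostly below 0, 13 of 14 tested in BAT (median -0.67) and 15 of 15 in eWAT (median -0.63). The part of these cells in the Hmox1 values was not tested. Beside Gpx7 and Gpx8, 18 genes of oxidative folding were tested in every tissue and 0 passed, with 13 below 0 in iWAT and in eWAT and 14 in BAT and in liver. Qsox1, a sulfhydryl oxidase, was at -0.44 in liver (SE 0.094, adjusted p 0.756), and Pdia4, a disulfide isomerase, at -0.34 in BAT (SE 0.13, adjusted p 0.392).

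No member's promoter held the core of the antioxidant response element, searched as TGACNNNGC on both strands. The 8 promoter windows of the 5 genes in RefSeq (GRCm38.p6, 300 bases from 250 before to 50 after the start) held 0 matches, and 12.39% of all 32851 promoter windows held at least 1. No match says only that these letters are not in these windows.

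Over all 32 libraries, each member was set against 12574 genes by the root mean square difference of log2(FPKM + 1) after centring each gene on its mean, a measure in which small values mean like patterns. Gpx1 was most like Tmbim6 (0.276), Derl2 (0.297) and Tspan31 (0.304). Gpx4 was most like Taldo1 (0.299), a pentose phosphate enzyme, Tomm5 (0.350) and Arl2 (0.350). The nearest to Gpx3 were Pkm at 0.698, Slc25a4 at 0.749 and Slc2a4 at 0.817. The measure also grows with a gene's range, which was widest for Gpx3. Its median over all genes compared was 2.54 for Gpx3, 1.07 for Gpx1, 1.04 for Gpx4, 1.41 for Gpx7 and 1.52 for Gpx8. Gpx7 was nearest to Tuba1b (0.307), Slc48a1 (0.313) and Mmd (0.331), and Gpx8 to Sh3kbp1 (0.380), Car13 (0.384) and Pfkp (0.405). Among the members, Gpx7 and Gpx8, the pair with the most matching bases in the codon windows, had the smallest difference in pattern (1.10). Gpx1 and Gpx3 had the largest (3.41). Of the 12574 genes, however, Gpx8 stood only at place 2332 in likeness to Gpx7, and Gpx7 at place 1138 in likeness to Gpx8. In likeness to Gpx3, Gpx8 stood at place 53. Whether likeness in sequence goes with likeness in pattern was not tested. The tissue means dominate the measure of pattern.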

How the data were processed

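Values came from 1 deposited table of FPKM per gene. Per the submitters' processing notes the genome build was mm10 and the tools were featureCounts 1.5.0-p3, STAR 2.6.1d, DESeq2 1.20.0 and CASAVA, with no role or order given. The kit was not stranded. FPKM times gene length gave whole reads within 0.1 read in 100% of values, 13606756 to 19205640 per library, and the authors' library size followed median-of-ratios size factors.

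Groups came from the labels. Log2(FPKM + 1) was fitted with limma 3.58.1 in R 4.3.3 (intensity trend, mean FPKM of at least 0.5 over the libraries of the fit, Benjamini-Hochberg over all genes tested, threshold 0.05) for each tissue alone, for the 16 vehicle libraries together, and with interaction terms. The fits were tested on simulated data. For auranofin against vehicle, 31.3% (eWAT), 62.7% (iWAT), 70.1% (BAT) and 74.6% (liver) of simulated 2-fold changes were recovered. At 1.5-fold, recovery ran from 4.48% (eWAT) to 40.3% (liver). For the change of eWAT against that of iWAT, 22.4% of 2-fold changes were recovered. False calls numbered 53 of 14524 genes for liver against the fat depots, and 1 to 14 in each other comparison. Alternatives were a pseudocount of 0.1, no filter, the TPM scale, quantile normalisation, voom on rebuilt reads, a replicate block, removal of the gene-length trend, quality weights, 1 fit of 32 libraries, auranofin in place of vehicle libraries, and each library left out. Chosen after seeing the data were 3 pairs of libraries left out together, iWAT auranofin library 2 left out with the length trend removed, and Gpx4-ps2 reads added to Gpx4.

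The rule named the 5 members, Gpx2, Gpx5 and Gpx6, up to 2 genes of each pathway list with the smallest p in a tissue, Alb, Adipoq and Ucp1, and the 3 genes most like each member. Cdc20b, Gpx4-ps2 and Txnrd1 in other tissues were named outside it. Members and gene lists were chosen with earlier results of these data known. Sequences were read with Biopython 1.88. Protein sequences were not used here.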

Additional observations from a re-analysis of the deposited data

Results flagged for a closer look

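Each gene in each group of 4 libraries made 1 set, 40 sets in all. In 7 of the 40 sets, 1 library lay farther from the other 3 than Dixon's 95% critical value allows. Independent sets would give about 2 by chance, but these sets share libraries between genes, so the counts do not make a test. For Gpx1 this was eWAT auranofin library 1 at 926 FPKM, with the others at 463 to 530.2. For Gpx3 it was eWAT auranofin library 2 at 412 FPKM, against 203 to 215. Gpx7 had a high iWAT auranofin library 2 at 27.0 FPKM, against 15.4 to 16.3, and a low eWAT vehicle library 2 at 10.6, against 14.8 to 15.5. Gpx8 had a high liver auranofin library 2 at 1.91 FPKM, against 0.813 to 0.983, a low BAT vehicle library 2 at 16.3, against 25.03 to 25.3, and a low BAT auranofin library 2 at 24.1, against 32.7 to 33.5. Library 2 was the distant one in 6 of the 7 sets, and the labels do not say what a library number stands for.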

How the results depend on the processing

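Libraries that share a number were not taken to be paired, since correlations of their deviations ran from -0.206 to 0.387 between vehicle and auranofin and from -0.343 to 0.283 between tissues. The replicate block changed no member's call in any comparison, so the counts of called members stayed those given above. The shares of all genes called with the replicate block are not given here.

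Counts of called members moved as follows. The share of all genes tested that passed stands in brackets. In iWAT, 3 were called with quality weights (46.3%) and 2 without auranofin library 2 and the length trend (32.4%). With each iWAT library left out 0 to 3 were called, the 3 without auranofin library 2 (36.4%). In eWAT, 1 was called in 1 fit of 32 libraries (6.99%). With auranofin in place of vehicle libraries, 1 was called for eWAT-iWAT (10.6%) and 4 for BAT-iWAT (47.5%). With each library left out, 0 to 2 were called for the eWAT-iWAT and for the iWAT-BAT difference of changes. The 2 were called without iWAT auranofin library 2 (14.8% for eWAT-iWAT and 27.4% for iWAT-BAT).

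Some differences changed sign. For auranofin in iWAT, Gpx3 came to 0.00071 with a pseudocount of 0.1, 0.28 on the TPM scale, 0.45 with quantile normalisation, 0.22 without the length trend and 0.31 without that and library 2. Gpx8 there came to 0.18, 0.083, 0.20 and 0.43 with the last 4 of these, and 0.021 with quality weights. In eWAT, Gpx7 came to -0.16 (TPM), -0.043 (quantile), -0.0056 (voom), -0.17 (length), -0.11 (weights), -0.11 (without vehicle 1 and 2) and -0.25 (without auranofin 1 and vehicle 2), and Gpx8 to 0.056 (weights) and 0.16 (without vehicle 1 and 2). Gpx8 in liver came to 0.063 (pseudocount 0.1) and 0.088 (voom).

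Between tissues, Gpx1 in eWAT-iWAT came to 0.15 (TPM), 0.29 (quantile), 0.010 (length) and 0.61 (auranofin libraries). Gpx1 in BAT-eWAT came to -0.79 (TPM), -0.75 (quantile), -0.092 (length) and -0.58 (auranofin libraries), and in BAT-iWAT to 0.036 (auranofin libraries). Gpx4 in liver-eWAT came to -0.86 (TPM), -0.83 (quantile), -0.84 (auranofin libraries) and -0.086 (without eWAT vehicle 1 and 2). Gpx4 came to 0.073 in eWAT-iWAT (auranofin libraries) and -0.032 in BAT-iWAT (TPM). Gpx8 came to -0.60 in BAT-eWAT (TPM) and -0.24 in eWAT-iWAT (without eWAT vehicle 1 and 2).

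Among differences of changes, eWAT-iWAT Gpx8 came to 0.26 and eWAT-BAT Gpx7 to -0.054 without eWAT vehicle 1 and 2. The latter was -0.029 (length) and -0.20 (without eWAT auranofin 1 and vehicle 2). For iWAT-BAT, Gpx1 came to 0.13 (TPM) and 0.31 (quantile), and Gpx3 to 0.17 and 0.36. Liver against fat Gpx8 came to 0.073 (pseudocount 0.1), 0.092 (voom) and 0.031 (without iWAT libraries 4).

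Leaving out each library gave -0.32 to 0.35 for Gpx3 and -0.23 to 0.047 for Gpx8 in iWAT, and -0.13 to 0.13 for Gpx7 in eWAT. It gave -0.051 to 0.28 for Gpx3, -0.17 to 0.17 for Gpx7 and -0.31 to 0.17 for Gpx8 in liver. BAT-eWAT ranged from -0.097 to 0.19 for Gpx1 and -0.020 to 0.39 for Gpx8. The differences of changes ranged from -0.080 to 0.18 for Gpx7 (eWAT-BAT), -0.57 to 0.094 for Gpx3 (iWAT-BAT) and -0.30 to 0.18 for Gpx8 (liver against fat). Causes were not tested.

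The TPM scale moved the median of all genes to 0.23 for auranofin in iWAT, to -0.14 in eWAT and to between -0.98 and 0.32 between tissues. For BAT-eWAT it turned 3623 higher and 3983 lower calls into 1298 and 8957. Depth limits Gpx7 and Gpx8 in liver, at 3 to 29 reads a library. With 4 libraries a group, small differences may go uncalled, and for auranofin in eWAT most simulated 2-fold changes did. The printed intervals are not adjusted for the number of genes tested, so they do not give the size that can be called.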
